A study of Mus musculus with 6 samples.

Results

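The data on 10 genes of the intestinal microvillus were examined in organoids treated with MMK-1 or with its vehicle. They were Vil1, Espn, Eps8, Myo1a, Myo7b, Cdhr2, Cdhr5, Ush1c, Ezr and Pls1, taken by name for their known roles, with earlier results of these data known. All 10 were rows of the deposited table of 21397 genes, and all 10 passed the filter on low values (a mean FPKM of at least 1). FPKM is the number of sequenced fragments on a gene divided by the gene's length and by the library's total, so that levels of different genes may be set side by side. Organoids, which are epithelial cultures grown in a gel, were derived from the small intestine of Fpr2f/f mice. These mice carry floxed alleles of Fpr2, the gene of formyl peptide receptor 2, and both groups carried them, with no Cre named in the labels. The MMK-1 group (n = 3 libraries) received MMK-1, a synthetic peptide agonist of that receptor, and the control group (n = 3) received 0.1% DMSO, both for 5 days. The protocol text and the study's methods give the dose as 1 μM, whereas the treatment label gives 1 mM, and the conflict could not be settled from the labels. Each sample pooled organoids of several mice according to the study's methods, so that the p-values below measure only the spread between these samples. The comparison bears on the study's question of how FPR2 acts on the intestinal epithelium.

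Microvilli are finger-like protrusions that make up the brush border of the absorptive enterocyte. Each holds a core of parallel actin filaments, which is bundled by villin (Vil1), plastin-1 (Pls1) and espin (Espn), while EPS8 caps and bundles the filaments at the tip. Myosin 1a (Myo1a) and ezrin (Ezr) tie the core to the plasma membrane. At the tips, the protocadherins CDHR2 and CDHR5 of neighbouring microvilli bind each other, and the scaffold harmonin (Ush1c) and the motor myosin 7b (Myo7b) hold them together with ANKS4B and CALML4 in the intermicrovillar adhesion complex. These links pack the microvilli as the enterocyte matures along the crypt-villus axis. Several of these genes or their relatives also serve the stereocilia of hair cells in the inner ear.

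Between 35512738 and 37537462 fragments were recovered per library, and the 10 genes held from 2115 (Espn) to 66607 (Vil1) fragments in a library. In a principal component analysis, the first component separated the groups and held 92.4% of the variance, while the second held 4.48% and set MMK-1 replicate 3 apart. Epithelial markers were high in every library (Epcam, Cdh1, Krt8, Krt18, Cldn7 and Cldn3 summed to 2105 to 2152 FPKM in controls and 1995 to 2172 with MMK-1). Of these, 3 were called higher and 1 lower. Median-ratio scaling gave 1 higher and 3 lower, against 35.9% and 36.3% of all genes. The 12 markers of leukocytes, endothelium, fibroblasts and muscle summed to 3.10 to 3.92 and 1.07 to 2.04 FPKM, with Kdr at 0 in all 6 libraries, and Cd68, the only marker of these above the filter, was lower. Among all 10551 genes tested with limma, 48.5% were higher with MMK-1 and 24.7% were lower, and the median of the log2 fold changes was 0.13.

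Of the 10 genes, 9 were lower with MMK-1 and 0 were higher by limma on log2(FPKM + 1), taking adjusted p (Benjamini-Hochberg) up to 0.05, against a background of 24.7% of all genes lower and 48.5% higher. The median of their log2 fold changes was -0.53. The study's methods set a stricter rule, a fold change of at least 2 with p of at most 0.05. With those thresholds on the limma fit used here, Myo1a, Vil1 and Cdhr2 were lower, which is 3 of 10 against a background of 3.65%. By the same thresholds 0 were higher, against 3.39%. Calls made by the study's own test may differ from these. Summed over the 10 genes, the level was 1823, 1799 and 1771 FPKM in control replicates 1 to 3 and 862.3, 868.2 and 920.7 FPKM in MMK-1 replicates 1 to 3. The groups did not overlap, and the sum fell by 50.8%. For 9 of the 10 genes, every MMK-1 library lay below every control library, whereas 26.3% of all tested genes were separated in that direction and 76.8% in either. An exact two-sided permutation test of 3 against 3 libraries gave p = 0.1 for each of those 9 genes, the smallest value that this design allows. In bulk RNA, fewer cells of a type and less RNA per cell cannot be told apart.

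**Figure D1:**
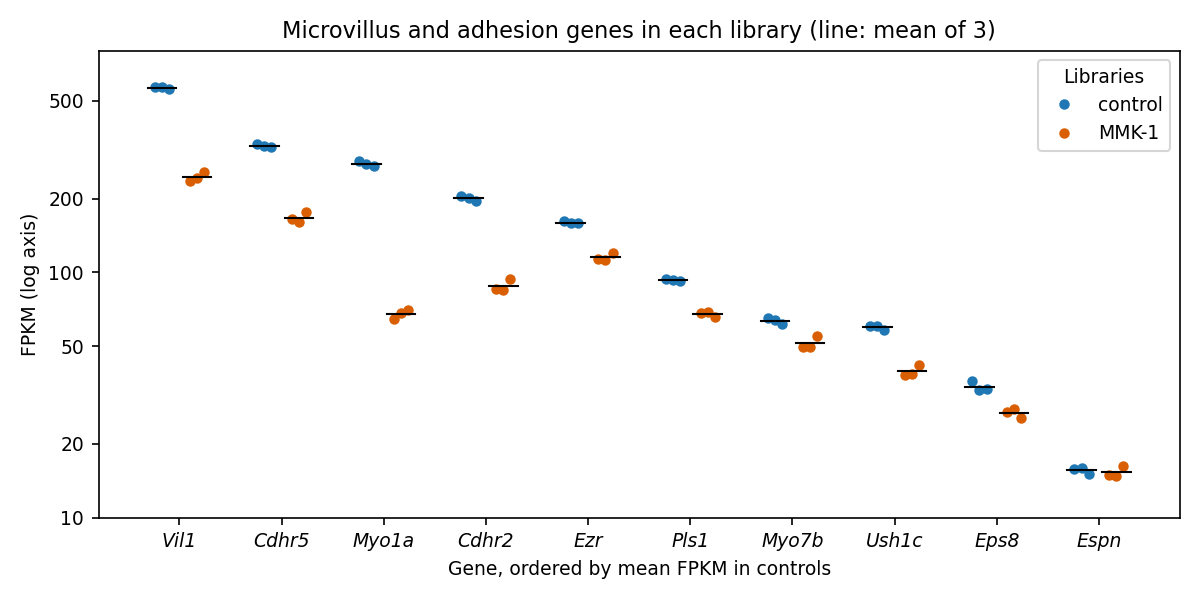
FPKM (log axis) of the 10 genes in each library, ordered by the mean of the controls. Points are libraries, 3 control and 3 MMK-1, and bars are group means. The points of the groups are apart for 9 genes and interleaved for Espn, and Myo1a shows the widest gap, from 277.0 to 67.6 FPKM.

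The 250 bases upstream of the RefSeq transcription start (GRCm38.p6) are shown for the genes that fell past 2-fold, and for Cdhr5, which lay just short of it, so that the promoters of the genes with the largest differences can be set side by side. Capitals mark matches to the motifs searched, on either strand: CAAAGTC, a core of the site that HNF4 factors bind, GTTAAT, the arm of the palindrome that HNF1 factors bind, CATAAA, which CDX factors bind, AGATAA, which factors of the GATA family bind, TATAAA, the consensus of the core promoter element of that name, and the CArG box, which serum response factor binds. Sequences are written 5′ to 3′ on the strand of the gene, at chr1:74409134-74409383 (plus) for Vil1, chr10:127705006-127705255 (plus) for Myo1a, chr13:54701213-54701462 (plus) for Cdhr2 and chr7:141276787-141277036 (minus) for Cdhr5.
Vil1: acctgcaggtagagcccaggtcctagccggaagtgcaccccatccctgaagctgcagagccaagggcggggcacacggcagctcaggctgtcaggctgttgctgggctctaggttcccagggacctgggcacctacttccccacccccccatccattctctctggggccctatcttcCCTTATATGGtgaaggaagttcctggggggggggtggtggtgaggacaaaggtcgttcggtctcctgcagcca
Myo1a: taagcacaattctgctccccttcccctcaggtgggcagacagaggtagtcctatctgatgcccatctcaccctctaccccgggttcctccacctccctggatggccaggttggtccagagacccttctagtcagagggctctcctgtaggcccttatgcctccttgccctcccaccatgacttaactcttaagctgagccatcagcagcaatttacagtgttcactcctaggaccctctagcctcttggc
Cdhr2: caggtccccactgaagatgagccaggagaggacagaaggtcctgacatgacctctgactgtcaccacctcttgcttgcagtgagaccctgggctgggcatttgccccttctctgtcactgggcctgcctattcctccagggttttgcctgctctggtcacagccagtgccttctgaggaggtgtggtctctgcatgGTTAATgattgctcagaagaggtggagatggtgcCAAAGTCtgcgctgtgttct
Cdhr5: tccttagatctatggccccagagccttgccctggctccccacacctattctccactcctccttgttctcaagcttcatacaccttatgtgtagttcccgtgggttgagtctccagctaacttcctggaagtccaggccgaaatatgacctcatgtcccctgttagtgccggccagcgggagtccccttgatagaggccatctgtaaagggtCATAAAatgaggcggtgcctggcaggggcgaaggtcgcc

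Windows on the chromosome of Myo7b were left out of the search, and windows were found for 8 of the 10 genes. The Vil1 window held a CArG box at -73 to -64 from the start, a motif present in 1.47% of the 32851 RefSeq windows of the same length that were searched. The Cdhr2 window held the HNF1 motif at -54 to -49 (present in 6.43% of windows) and the HNF4 motif at -20 to -14 (3.84%). The Cdhr5 window held CATAAA at -39 to -34 (10.8%), as did 1 of the 3 windows of Espn, at -196 to -191. The motif of the GATA family (9.99% of all windows) and the core promoter element (12.4%) were found in 0 of the 8 genes, and Myo1a, Ush1c, Ezr and Pls1 had no match to any motif searched. These matches describe the letters of the windows only.

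The bundling proteins of the actin core differed in their changes. Villin, which bundles actin and severs it at high calcium, was the most abundant of the 10 transcripts in both groups. Vil1 (NCBI gene 22349; GRCm38 chromosome 1, 74409376 to 74435559, plus strand) stood at 570.5, 567.0 and 559.8 FPKM in controls and at 235.0, 242.9 and 256.6 FPKM with MMK-1. All MMK-1 libraries were far below all controls, and the level fell by 56.7%. Its log2 fold change was -1.21 (SE 0.0421, 95% interval -1.30 to -1.11, limma adjusted p = 5.7e-08), and it moved from rank 133 to rank 243 among all genes by mean FPKM. Its exons overlap those of Usp37 on the opposite strand, and Usp37 had at most 1095 fragments in a library, against at least 26013 on Vil1.

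Plastin-1, also called fimbrin, is the other abundant bundling protein of the core. Pls1 (NCBI gene 102502; chromosome 9, 95752642 to 95845311, minus strand) was at 93.6, 93.3 and 92.6 FPKM in controls and at 68.6, 69.1 and 65.7 FPKM with MMK-1. The control libraries lay within 1 FPKM of one another, and the MMK-1 libraries were all lower. The log2 fold change was -0.45 (SE 0.0376, limma adjusted p = 8.4e-06), a fall of 27.2%.

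Espin was the exception. Espn (NCBI gene 56226; chromosome 4, 152120331 to 152152371, minus strand) was the least abundant of the 10, at 15.7, 16.0 and 15.1 FPKM in controls and 14.9, 14.8 and 16.2 FPKM with MMK-1. The groups overlapped, and the highest value of all 6 was that of MMK-1 replicate 3. The log2 fold change was -0.03 (SE 0.0495, limma adjusted p = 0.625), with a 95% interval from -0.14 to 0.08, and the exact permutation p was 0.7. That interval excludes a fall as large as that of any of the other 9 genes by its own estimate. When libraries were scaled by the median ratio, which moved the median of all genes from 0.13 to 0.01, Espn was called lower (log2 fold change -0.17, SE 0.0412, limma adjusted p = 0.0072).

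EPS8 caps the fast-growing ends of actin filaments. Eps8 (NCBI gene 13860; chromosome 6, 137477245 to 137654876, minus strand) was at 35.9, 33.1 and 33.6 FPKM in controls and at 27.0, 27.9 and 25.6 FPKM with MMK-1. The groups were separate by several FPKM. The level fell by 21.7%, with a log2 fold change of -0.34 (SE 0.0493, limma adjusted p = 0.00026).

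Myosin 1a, the motor that links the side of the core to the membrane, showed the largest change of the 10. Myo1a (NCBI gene 432516; chromosome 10, 127705170 to 127720940, plus strand) was at 283.4, 275.3 and 272.4 FPKM in controls and at 64.6, 68.3 and 70.0 FPKM with MMK-1. The lowest control was still several times the highest MMK-1 library. Myo1a was 4.10-fold lower, with a log2 fold change of -2.02 (SE 0.0424, 95% interval -2.12 to -1.92, limma adjusted p = 3.9e-09). Its rank among all genes went from 245 to 939.

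The protocadherins of the intermicrovillar links both fell, by 56.0% for Cdhr2 and 49.2% for Cdhr5. Cdhr2 (NCBI gene 268663; chromosome 13, 54701461 to 54736662, plus strand) was at 204.6, 201.8 and 196.1 FPKM in controls and at 85.9, 85.0 and 94.0 FPKM with MMK-1. Its log2 fold change was -1.18 (SE 0.0476, 95% interval -1.29 to -1.07, limma adjusted p = 1.2e-07). Cdhr5 (NCBI gene 72040; chromosome 7, 141269083 to 141276786, minus strand), its partner in the link, was at 332.2, 328.8 and 323.1 FPKM in controls and at 164.7, 160.1 and 175.5 FPKM with MMK-1. No library of either gene lay in the range of the other group. The log2 fold change of Cdhr5 was -0.97 (SE 0.0434, 95% interval -1.07 to -0.87, limma adjusted p = 2.1e-07). Cdhr5 was thus 1.97-fold lower, just short of the 2-fold rule, and it passed that rule without MMK-1 replicate 3 (log2 fold change -1.01), which raised the count of genes past 2-fold from 3 to 4.

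The cytoplasmic parts of the adhesion complex were lower as well, with smaller fold changes. Harmonin is the PDZ scaffold to which the tails of both protocadherins bind. Ush1c (NCBI gene 72088; chromosome 7, 46195350 to 46238503, minus strand) was at 60.5, 60.7 and 58.5 FPKM in controls and at 38.4, 38.6 and 41.9 FPKM with MMK-1. The groups stood well apart, and the log2 fold change was -0.59 (SE 0.0462, limma adjusted p = 6.1e-06). Myosin 7b moves the complex to the tips. Myo7b (NCBI gene 17922) was at 65.4, 63.7 and 61.5 FPKM in controls and at 49.8, 49.5 and 54.8 FPKM with MMK-1. MMK-1 replicate 3 came closest to the controls without reaching them. The log2 fold change of Myo7b was -0.30 (SE 0.0504, limma adjusted p = 0.00062), the smallest of the 9 falls. Anks4b, the ankyrin-repeat scaffold that joins harmonin to the motor, went from 69.2 ± 0.998 to 48.2 ± 1.75 FPKM (mean ± SD, n = 3 each), with a log2 fold change of -0.51 (limma adjusted p = 6.7e-06). Calml4, a light chain of myosin 7b, went from 216.6 ± 7.36 to 146.5 ± 8.44 FPKM, with a log2 fold change of -0.56 (limma adjusted p = 1.4e-05). All 6 genes of the complex were therefore lower, against 24.7% of all genes. The pair of protocadherins stood at -1.18 and -0.97 and the other 4 between -0.59 and -0.30. The difference between the pair and the other 4 was not tested.

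Ezrin, the linker between the actin core and membrane proteins, was lower as well. Ezr (NCBI gene 22350; chromosome 17, 6738041 to 6782784, minus strand) was at 161.2, 159.0 and 158.8 FPKM in controls and at 113.4, 112.0 and 120.2 FPKM with MMK-1. The groups did not overlap, and the level fell by 27.8%. The log2 fold change was -0.47 (SE 0.0401, limma adjusted p = 1.0e-05). Sytl3, whose exons overlap those of Ezr on the opposite strand, had at most 269 fragments in a library, against at least 12359 on Ezr.

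**Figure D2:**
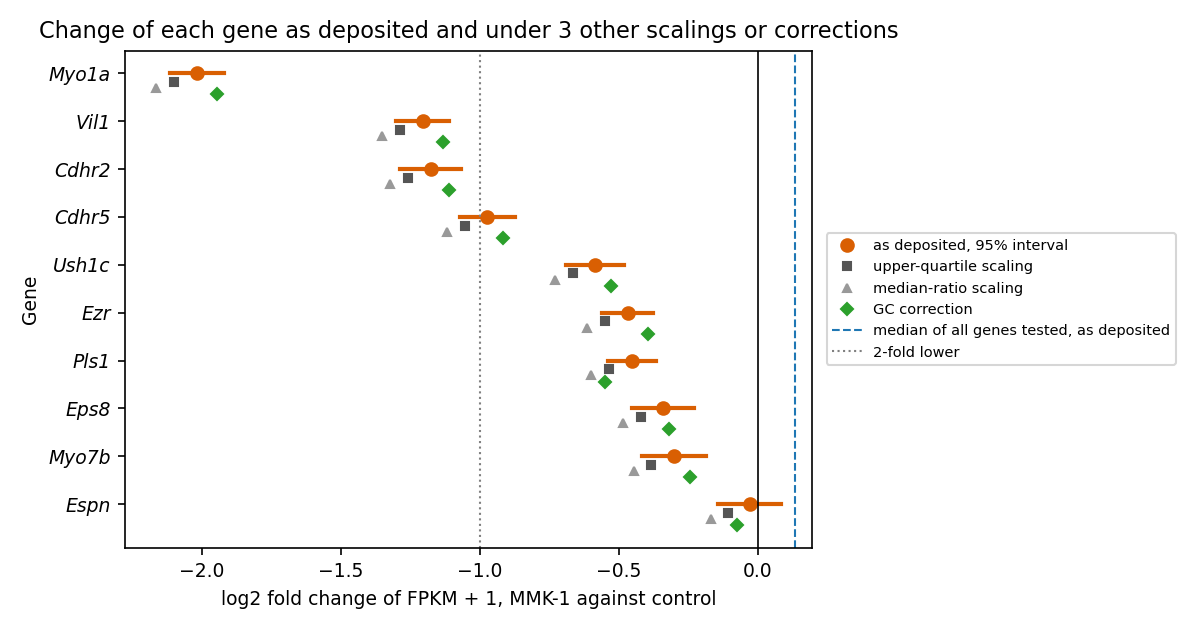
Log2 fold change of FPKM + 1, MMK-1 against control, for each of the 10 genes. Circles with bars are the deposited values with their 95% intervals from limma, and the other symbols are the values after upper-quartile scaling, median-ratio scaling or a correction for GC content. The dotted line marks 2-fold lower and the dashed line the median of all genes (0.13). Every symbol lies left of 0, from -2.17 for Myo1a to -0.03 for Espn.

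Relative to the median of all genes, the log2 fold changes of the 10 genes ran from -2.15 for Myo1a to -0.16 for Espn, with Vil1 at -1.34, Cdhr2 at -1.31 and Cdhr5 at -1.11. Across all genes, median-ratio scaling gave 35.9% higher and 36.3% lower, in place of 48.5% and 24.7%. It gave 10 of the 10 genes lower, and the other scaling and the GC correction gave 9, against 31.2% and 24.9% of all genes lower.

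MMK-1 replicate 3 was the highest of the MMK-1 libraries for 8 of the 10 genes, by 5.36% (Myo1a) to 10.4% (Myo7b) over the mean of replicates 1 and 2. Eps8 and Pls1 were lowest in it, by -6.55% and -4.52%. The exons of these 2 genes had the lowest GC content of the 10, at 47.6% and 42.7%, while the others lay between 52.8% and 63.9%. The part of GC content in this was not tested. Without this library, 9 genes were again lower and the median of the log2 fold changes was -0.56, against 28.2% of all genes.

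In controls the levels followed the order Vil1, Cdhr5, Myo1a, Cdhr2, Ezr, Pls1, Myo7b, Ush1c, Eps8 and Espn, and no neighbours in that order overlapped across libraries. With MMK-1 the order was Vil1, Cdhr5, Ezr, Cdhr2, Pls1, Myo1a, Myo7b, Ush1c, Eps8 and Espn, and only Pls1 and Myo1a overlapped. Myo1a thus dropped from the third place to the sixth. Its share of the summed FPKM of the 10 went from 15.4% to 7.65%, and that of Vil1 from 31.5% to 27.7%. The share of Ezr went from 8.88% to 13.04%, that of Pls1 from 5.18% to 7.69% and that of Espn from 0.869% to 1.73%.

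Ratios within a library do not depend on scaling between libraries, so each gene was also set against Vil1. The ratio of Cdhr2 did not separate the groups. It was at 35.5% ± 0.423 of the Vil1 level in controls and at 36.1% ± 0.922 with MMK-1 (n = 3 each), a log2 difference of 0.02, and the exact permutation p was 0.4. Myo1a was the only gene whose ratio was lower with MMK-1, from 49.0% ± 0.617 to 27.6% ± 0.422. The remaining 7 ratios were higher in every MMK-1 library than in every control. Ezr went from 28.2% ± 0.160 to 47.1% ± 1.09, Myo7b from 11.2% ± 0.237 to 21.0% ± 0.521 and Espn from 2.76% ± 0.0575 to 6.26% ± 0.149. On the log2 scale Cdhr5 moved least of these (difference 0.23), from 58.0% ± 0.254 to 68.1% ± 2.11. In the 8 ratios other than that of Cdhr2 the groups did not overlap, and the exact two-sided permutation p was 0.1 in each (0.1125 when adjusted over the 9 ratios), so that the design could not reach 0.05. By FPKM alone, the groups did not overlap for 76.8% of all tested genes. All 9 of these ratios share Vil1 as the denominator. Against the sum of Krt8 and Krt18 in its place, only the ratio of Espn was higher with MMK-1 (log2 difference 0.14). Krt8, the larger part of that sum, was itself lower (log2 fold change -0.30), while Krt18 was higher (0.44) and Espn was not called.

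For 7 of the 10 genes, the make-up of a family of related proteins was compared within each library as shares of the family's FPKM. Myo1a made up 70.7, 71.0 and 70.6% of the transcripts of 4 class I myosins (Myo1a, Myo1c, Myo1d and Myo1e) in controls and 41.1, 42.4 and 41.4% with MMK-1. The loss of its majority came with a larger share of Myo1d, another membrane-binding motor of the brush border, which went from 24.9% ± 0.127 to 44.2% ± 0.257. Myo1d was itself lower, from 97.4 ± 1.84 to 71.8 ± 3.00 FPKM (log2 fold change -0.44, limma adjusted p = 2.4e-05). Myo1c rose from a low level of 7.61 ± 0.361 FPKM, with a log2 fold change of 0.77 (limma adjusted p = 3.6e-06). Myo1e was at 9.49 ± 0.550 and 9.30 ± 0.455 FPKM and was not called.

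The plastins showed a similar shift. Pls1 made up 88.9, 89.6 and 90.3% of the family in controls and 67.4, 67.8 and 65.0% with MMK-1. Lcp1, which encodes plastin-2 and is best known from leukocytes, stood at 11.4, 10.7 and 9.81 FPKM in controls and 32.1, 31.7 and 34.5 FPKM with MMK-1. It rose in every MMK-1 library, with a log2 fold change of 1.54 (SE 0.0600, limma adjusted p = 1.0e-07). Ptprc, the pan-leukocyte gene of CD45, had at most 3 fragments in a library, at 0.00757 ± 0.00523 FPKM in controls and at 0.00311 ± 0.00269 FPKM in treated libraries. Cd3e had at most 1 fragment. Cd68 and Csf1r, the other leukocyte markers listed, had up to 167 and 23 fragments. Their means went from 3.17 to 1.15 FPKM and from 0.152 to 0.00703 FPKM. The cell type in which Lcp1 rose was not tested. Pls3 was under the filter, at 0.191 ± 0.0767 and 0.994 ± 0.122 FPKM.

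In the remaining families the shares of Eps8, Myo7b, Vil1, Ezr and Espn changed less than those of Myo1a and Pls1. Eps8 was a minor member of its family in both groups, at 8.98% ± 0.271 and 10.3% ± 0.824. The larger shares of that family moved more, with Eps8l3 going from 52.3% to 45.8% and Eps8l2 from 38.5% to 43.7%. Myo7b made up 80.8% ± 0.562 of the class VII myosins in controls and 80.4% ± 0.193 with MMK-1, and the groups overlapped (exact permutation p = 0.3), since Myo7a was also lower (log2 fold change -0.25, limma adjusted p = 0.0018). Vil1, Ezr and Espn made up at least 99.7% of their families in every library. The relatives of ezrin, radixin (Rdx) and moesin (Msn), had at most 10 and 3 fragments in a library. In 5 of the 7 families the groups did not overlap, with an exact two-sided permutation p of 0.1 each (0.14 adjusted over the 7 families). For comparison, the FPKM of 76.8% of all tested genes did not overlap between the groups.

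**Figure D3:**
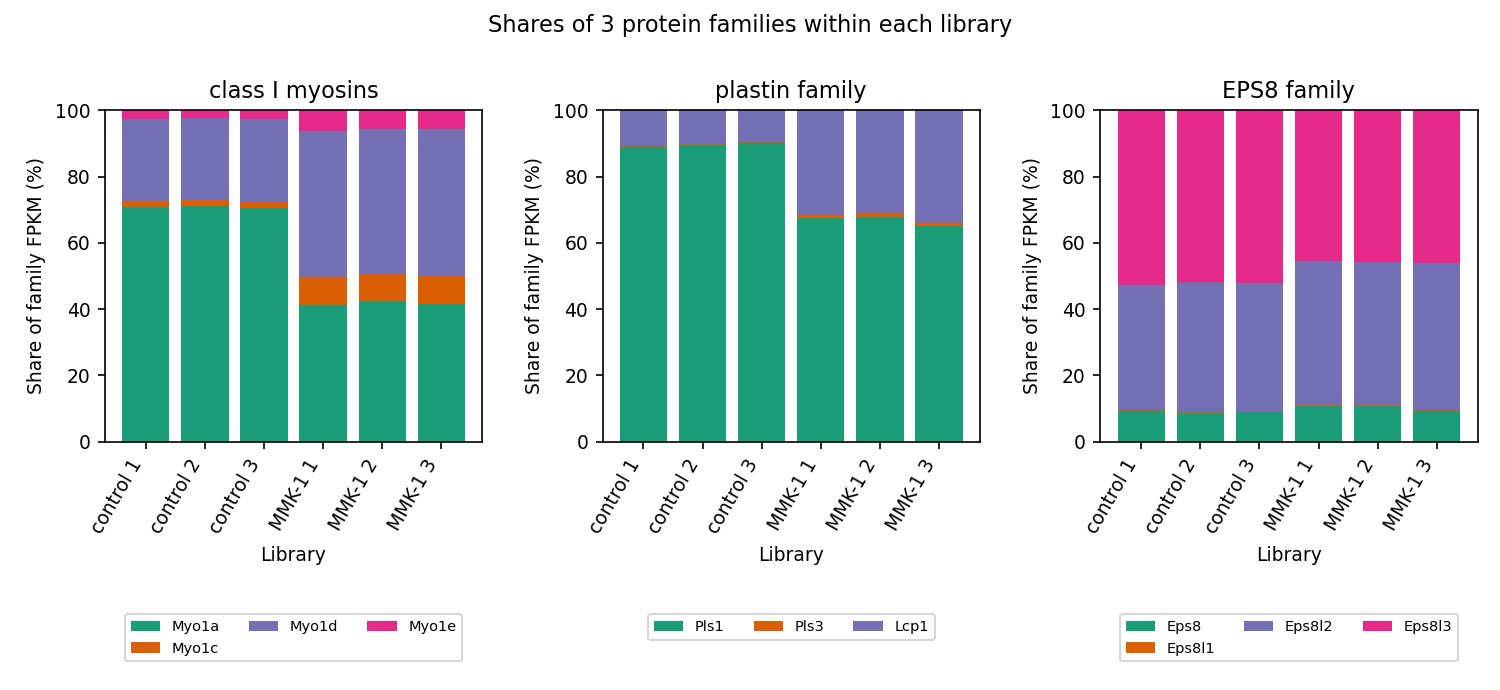
Share of each gene in the summed FPKM of its protein family (percent) in each of the 6 libraries, for 4 class I myosins, the plastins and the EPS8 family. Bars are stacked to the family's total. Myo1a goes from 70.8% to 41.7% and Pls1 from 89.6% to 66.8%, while Eps8 stays a small part of its family.

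Other genes of the brush border were described from 6 lists chosen by role, in which 66 of 87 listed genes in the table passed the filter. Of the 66, 32 were lower and 21 were higher, against 24.7% and 48.5% of all genes. Median-ratio scaling gave 41 lower and 16 higher, against 36.3% and 35.9% of all genes. Beside the genes that partner or resemble those of the core, 13 were tested, of which 7 were lower and 3 higher, and the median of the log2 fold changes was -0.20. Cobl, an actin nucleator of the terminal web and microvillus base, went from 34.1 ± 1.19 to 14.9 ± 0.398 FPKM (log2 fold change -1.14, limma adjusted p = 9.5e-08). Eps8l3 went from 199.3 ± 4.30 to 119.1 ± 6.09 FPKM (-0.74, limma adjusted p = 1.5e-06), and Myo5b, the motor of apical recycling endosomes, from 37.7 ± 0.281 to 26.9 ± 1.17 FPKM (-0.47, limma adjusted p = 1.5e-05). The 3 that rose were Lcp1 and Myo1c, given above, and Baiap2, the gene of a membrane-bending protein, with a log2 fold change of 0.60 (limma adjusted p = 1.6e-05).

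Among the genes related to the adhesion complex, 5 of the 10 in the table were tested, 3 lower and 2 higher, with a median of -0.51 (24.7% lower and 48.5% higher among all genes). Besides Anks4b and Calml4, Tmigd1, an immunoglobulin-domain adhesion protein of the enterocyte, went from 8.03 ± 0.606 to 1.93 ± 0.215 FPKM (log2 fold change -1.62, limma adjusted p = 2.2e-07). Whrn, which encodes the harmonin-like scaffold whirlin, rose from 3.87 ± 0.317 to 6.76 ± 0.148 FPKM (0.67, limma adjusted p = 1.1e-05), and Mtss1, a membrane-bending protein, rose with a log2 fold change of 0.26 (limma adjusted p = 0.0012). Cdhr1, Cdhr3 and Cdhr4, relatives of the protocadherins, and the stereocilia cadherin Cdh23 were below the filter.

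Of the ezrin-linked scaffolds, 4 were lower and 4 higher of 9 tested, with a median of 0.09, beside 24.7% and 48.5% of all genes and their median of 0.13. Upper-quartile and median-ratio scaling each gave 4 lower and 3 higher, as the call of Nf2, a relative of ezrin, was lost. Of all genes, 31.2% were lower and 41.7% higher in the first scaling and 36.3% and 35.9% in the second. Nherf1, the PDZ scaffold that ezrin holds at the apical membrane, went from 161.1 ± 5.18 to 80.7 ± 2.56 FPKM (log2 fold change -0.99, limma adjusted p = 1.7e-07). Its relative Nherf4 was lower by a similar amount (-0.89, limma adjusted p = 1.7e-06), as was Clic5, an ezrin-associated protein of microvilli and stereocilia (-1.21, limma adjusted p = 6.1e-08). Its paralog Clic4 moved the other way, from 5.69 ± 0.130 to 13.9 ± 0.516 FPKM (1.15, limma adjusted p = 1.2e-07), as did Prom1, a cholesterol-binding protein of membrane protrusions (1.06, limma adjusted p = 1.1e-07), and Podxl, a sialomucin bound through NHERF proteins to ezrin (0.89, limma adjusted p = 7.1e-07).

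In the terminal web, the actomyosin and keratin layer beneath the microvilli, 8 of 15 tested genes were lower and 4 higher, with a median of -0.15, against 24.7% and 48.5% of all genes. Krt20, the keratin of mature surface cells, went from 291.3 ± 7.74 to 101.0 ± 4.75 FPKM (log2 fold change -1.52, limma adjusted p = 2.5e-08). Krt19 (-0.78) and the non-muscle myosin heavy chain Myh14 (-0.38) were lower too. Tpm4, a tropomyosin, rose from 48.9 ± 1.59 to 104.2 ± 4.73 FPKM (1.08, limma adjusted p = 1.8e-07), and Krt18 rose by a log2 fold change of 0.44. Myl12a was called higher (0.20), but not after median-ratio scaling. That scaling gave 11 of the 15 lower and 2 higher, against 36.3% and 35.9% of all genes, and upper-quartile scaling gave 10 and 4, against 31.2% and 41.7%.

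Genes that supply and remodel actin lay near the background of all genes on the deposited scale. Of 14 tested, 7 were higher and 3 lower, with a median of 0.12, beside 48.5% and 24.7% of all genes and their median of 0.13. Median-ratio scaling gave 5 higher and 6 lower, against 35.9% and 36.3% of all genes. The GC correction gave 9 higher and 2 lower, against 51.1% and 24.9%. Gsn, which encodes the severing protein gelsolin, and Cttn, the gene of cortactin, were lower (log2 fold changes of -0.57 and -0.28). Actb was lower by a small amount, close to the threshold (-0.11, limma adjusted p = 0.0427). With a replicate block, 2 genes of this list were lower in place of 3, against 24.1% of all genes. Vasp, an elongation factor of filaments, rose by a log2 fold change of 0.50. Wasl (0.67) and Capza2 (0.37) were higher as well, but both were far lower in MMK-1 replicate 3 (26.7 and 63.5 FPKM) than in replicates 1 and 2 (38.7 and 38.6 FPKM, and 83.1 and 85.4 FPKM), and Capza2 was not called after median-ratio scaling.

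Of the genes that carry cargo to the apical membrane, 7 of 10 tested were lower and 1 was higher, with a median of -0.25, against 24.7% and 48.5% of all genes. Upper-quartile and median-ratio scaling each gave 8 lower, against 31.2% and 36.3% of all genes. The fit with a replicate block gave 6, against 24.1%. Slc26a6, an apical anion exchanger, was lower by a log2 fold change of -0.73 (limma adjusted p = 9.4e-07), followed by Vps33b (-0.41) and the vesicle SNARE Vamp8 (-0.38). Unc45a, a myosin chaperone, was the gene that rose (0.35, limma adjusted p = 0.00038), and Rab11a (0.03) and Stxbp2 (-0.08) were not called on the deposited scale.

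**Figure D4:**
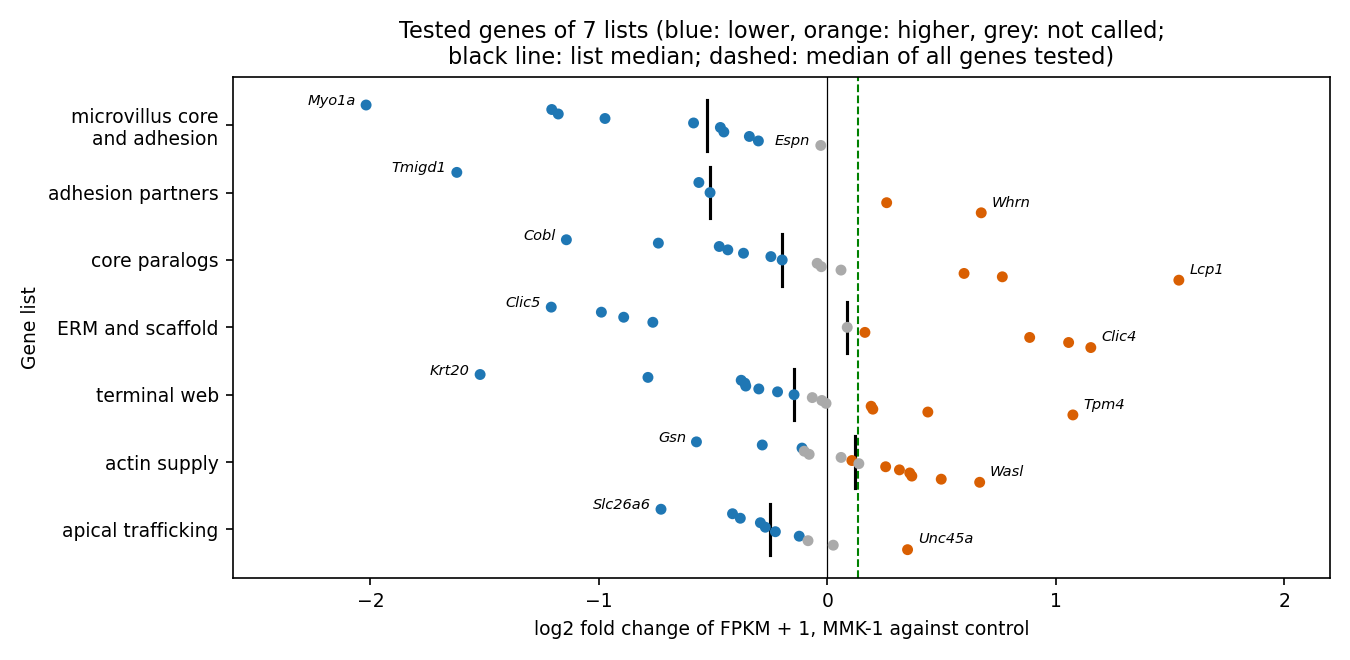
Log2 fold change of FPKM + 1, MMK-1 against control, of the tested genes in the microvillus core and adhesion group and in 6 related lists. Each point is a gene, blue where lower, orange where higher and grey where not called by limma, the short black lines are list medians and the dashed line is the median of all genes (0.13). The medians run from -0.53 for the core and adhesion genes to 0.12 for actin supply.

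Markers of cell state moved alongside these genes. Of 10 genes of mature enterocytes, 9 were lower and 1 was higher, against 24.7% and 48.5% of all genes, the median of their log2 fold changes was -0.95, and their sum lay between 9126 and 9256 FPKM in controls and between 5197 and 5601 FPKM with MMK-1. Among them, Lct and Anpep, which encode brush border hydrolases, had log2 fold changes of -2.37 and -2.84, beyond that of Myo1a, while Fabp1 was higher (0.17) and lost that call after upper-quartile or median-ratio scaling. All 6 markers of intestinal stem cells were higher, against 48.5% of all genes, and their sum went from 65.95 to 67.7 FPKM in controls to 381.2 to 408.6 FPKM with MMK-1. Tuft cells also carry bundled microvilli, and 0 of 8 tuft cell markers passed the filter, and their sum was 1.56 to 1.89 FPKM in controls and 1.96 to 2.39 FPKM with MMK-1. The part of these markers in the changes of the microvillus genes was not tested.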

How the data were processed

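RNA was measured by sequencing in 6 libraries, 3 per group, and samples were grouped by their GEO labels. The authors deposited FPKM values per gene, and no further scaling between libraries is stated. The submitters' processing notes name HISAT2, HTSeq, R 3.2.0, DESeq2 and mm10; the annotation and the strand setting of counting are not given in the sources used here. The fragments on each gene were recovered from the steps of the FPKM values (all 20676 genes above 0, within 0.002 of a whole number; in a simulation, 98.7% of 2995 genes were recovered). Fragment numbers cover counting error only.

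The main test was limma 3.58.1 (R 4.3.3) with a mean-variance trend on log2(FPKM + 1), fitted to 10551 genes whose FPKM averaged 1 or more, with no replicate block and with Benjamini-Hochberg adjustment over all genes tested. Fold changes on that scale understate changes of low genes. On simulated data around these libraries, 191 of 191 changed genes were called among 10378, and 0.157% of the unchanged ones. These rates were not broken down by size of fold change. Whether they hold for the smaller falls reported here, or where 48.5% of genes were higher and 24.7% lower, was not tested. Single values were tested by exact two-sided permutation of libraries, for which 0.1 is the smallest p. Means are given ± SD. The rest was computed in Python 3.11.15 (scipy 1.17.1, numpy 2.4.6, pandas 2.3.3) and plotted with matplotlib 3.10.9.

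Coordinates and GC content come from GENCODE vM21 on GRCm38 and may differ from the authors' annotation. None of the genes' stretches of 75 bases was shared with transcripts of another gene. The 10 genes, the lists and the markers were chosen with earlier results of these data known. All 10 genes are given in full. From each list, the 3 largest and 3 smallest log2 fold changes are named, together with relatives in the 7 families and Anks4b and Calml4; 1 gene of a list and family is not reported here and was left out of their counts and shares; terms of the deposited gene annotation were chosen after the table was seen. Nherf1 and Nherf4 were matched to their older symbols by NCBI gene ID. Alternatives covered scaling, filter, pseudocount, limma-voom on fragments, a replicate block, each library left out, fragment shares and another reference for ratios, and a GC correction (local regression, span 0.3) added after seeing the data.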

Additional observations from a re-analysis of the deposited data

How the results depend on the processing

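Across 13 alternatives for each of the 10 genes (130 values), 129 kept their direction and their side of the adjusted p threshold and 0 reversed, the exception being Espn after median-ratio scaling. The count of lower genes was 9 in each alternative but that scaling (10). The count past 2-fold was 4 instead of 3, through Cdhr5, with upper-quartile scaling, with median-ratio scaling and without MMK-1 replicate 3, and leaving out each library in turn gave 3 to 4. The log2 fold change of Myo1a ran from -2.17 to -1.95, and that of Myo7b from -0.45 to -0.24. Limma-voom on the recovered fragments called 5116 of all genes higher and 2589 lower. With the replicate number as a block, 9 of the 10 genes were again lower and 3 past 2-fold, and no call among them changed. Same-numbered libraries did not deviate together (correlations of 0.03, -0.04 and 0.03). As MMK-1 replicate 3 stood apart from its group, these correlations cannot settle whether the numbers pair the samples. The labels do not say. In the other lists, where 32 genes were lower and 21 higher, leaving out each library gave 29 to 35 lower and 20 to 23 higher, upper-quartile scaling gave 38 and 19, and median-ratio scaling gave 41 and 16.

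The ratios depend on their reference. Against the sum of Krt8 and Krt18 instead of Vil1, the log2 difference reversed for Eps8 (-0.18 in place of 0.86), Myo7b (-0.14 in place of 0.90), Cdhr2 (-1.02 in place of 0.02), Cdhr5 (-0.81 in place of 0.23), Ush1c (-0.43 in place of 0.61), Ezr (-0.30 in place of 0.74) and Pls1 (-0.29 in place of 0.75). Espn moved from 1.18 to 0.14 and Myo1a from -0.83 to -1.87. Vil1 itself had a log2 difference of -1.04 against these keratins. As shares of fragments, not divided by length, the change in share was -19.5 points for Pls1 (in place of -22.8) and 2.05 for Eps8 (in place of 1.36). It was -0.0594 for Ezr (in place of -0.0388) and -0.168 for Vil1 (in place of -0.131). With 3 libraries a group, no exact test could pass 0.05.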

Other observations

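Terms of the deposited gene annotation, chosen after the table was seen, describe the wider setting of the 10 genes. The counts below stand against 24.7% of all genes lower and 48.5% higher. Among genes annotated to the brush border, 66 were tested, of which 38 were lower and 18 higher. Leaving out the 9 of them that are among the 10 genes, 30 of 57 were lower and 18 higher, with a median log2 fold change of -0.16, beside 0.13 for all genes. In the brush border membrane, which holds transporters and hydrolases, 31 of 53 other genes were lower and 13 higher, with a median of -0.44. Of 41 other genes annotated to the microvillus, 16 were lower and 18 higher, with a median of -0.03. The microvillus membrane had 9 of 17 other genes lower and 5 higher (median -0.49), and microvillus assembly had 2 of 5 lower and 1 higher (median -0.04).

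Among all genes, 24.7% were lower and 48.5% higher, and the counts of some wider terms lay near these shares. Of 17 other genes annotated to the stereocilium, 6 were lower and 7 higher, with a median of 0.11. Of 64 other genes annotated to the sensory perception of sound, 18 were lower and 29 higher (median 0.10). Of 198 other genes annotated to actin binding, 52 were lower and 97 higher (median 0.11). No difference between terms was tested. Cdh23, the cadherin of the links between stereocilia, was below the filter, at 0.0322 ± 0.00329 FPKM in controls and at 0.117 ± 0.0159 FPKM with MMK-1.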
